A study of Mus musculus with 82 samples.

Results

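The 10 genes described here encode the neuronal intermediate filaments Nefl, Nefm, Nefh and Ina, the axonal motors Kif5a and Kif1a, and the microtubule proteins Mapt, Map1b, Stmn2 and Tubb3. They were chosen by name as genes of the axonal cytoskeleton, out of 48795 gene identifiers in the count table. All 10 had enough counts to be tested in each of the 23 comparisons made. They were followed in 82 mouse brain libraries made from laser-captured cortex and white matter. Ribosome-bound RNA had been immunoprecipitated (IP) by a published ribosome-tagging protocol, and the title of the study calls these profiles astrocyte-enriched.

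In each region 5 IP libraries came from each of 5 zones after stroke (zones 1 to 5) and 5 from uninjured mice, whose disease state is given as sham. A further cohort held 3 IP libraries pooled over zones 1 to 3 after stroke, with 3 libraries of input RNA (cleared lysate), and the 5 uninjured IP libraries of each region had 5 input libraries. Cortex came from mice with cortical stroke and white matter from mice with white matter stroke. The labels used here give neither the tagged allele, the Cre driver, the strain and age, the time after stroke, nor the position or width of a zone, and no label links a library to an animal. The p-values therefore measure the spread between libraries.

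Nefl, Nefm and Nefh are the light, medium and heavy chains of the neurofilament, the filament that fills large myelinated axons and sets their calibre. Ina (alpha-internexin) assembles with them in central neurons. Kif5a is a heavy chain of conventional kinesin, which carries neurofilaments and other cargo down the axon, and Kif1a carries precursors of synaptic vesicles. Mapt (tau) and Map1b bind and stabilise microtubules, Stmn2 binds tubulin and is produced in growing and regenerating axons, and Tubb3 is the neuron-typical beta-tubulin. These are textbook neuronal genes, although oligodendrocytes are also known to contain tau and kinesins.

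Levels are given as CPM, the count of a gene scaled to library size, over counts outside mt-Rnr1, mt-Rnr2, Gm42418, CT010467.1, Gm23935 and Lars2, because those 6 genes took most of each library. Total counts per library were between 2518604 and 28245109, and 389889 to 5708700 counts lay outside these 6 genes. Mitochondrial ribosomal RNA alone took 39.9% to 90.7% of a library. There were 5 shallow libraries, with under 1000000 such counts or under 10000 detected genes, namely white matter zone 1 replicates 1 and 5, zone 3 replicate 1 and zone 5 replicate 3, and cortex zone 1 replicate 1. The 12 astrocyte markers summed to 3987 to 7752 CPM in uninjured cortex IP libraries and 1489.9 to 3348 CPM in their inputs, and 2 of the 12 passed the test as higher in IP. Over all 11280 genes of that comparison 1349 were called higher in IP and 1509 lower. The 15 neuron markers summed to 7540.0 to 13116 CPM in IP, while 4 of the 5 inputs held 13154 to 16594 CPM, above every IP library, and input replicate 1 held 4713 CPM. Of these markers 2 were called higher in IP and 2 lower. Fewer cells of a type and less RNA per cell cannot be told apart in these bulk libraries.

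In the GRCm38 assembly, with GENCODE M21 gene models, Nefl lies on chromosome 14 at 68083863 to 68089095 (plus strand). Its neighbour Nefm, at 68082590 to 68124846 on the minus strand, shares 1108 exonic bases with it, which are 32.8% of the exonic bases of Nefl and 19.2% of those of Nefm. Ina, on chromosome 19 at 47014698 to 47025327 (plus strand), shares 456 exonic bases with Nt5c2 on the other strand. Whether the authors' counting used strand is not given in the sources used here, so reads in these stretches cannot be assigned. Nefh lies on chromosome 11 (4938754 to 4948064, minus strand), Kif5a on 10 (127225696 to 127263348, minus), Kif1a on 1 (93015464 to 93101951, minus) and Mapt on 11 (104231390 to 104332090, plus). Map1b lies on chromosome 13 (99421446 to 99516540, minus strand), Stmn2 on 3 (8509360 to 8561606, plus) and Tubb3 on 8 (123411424 to 123422015, plus). Tubb3 has near-identical beta-tubulin relatives, which could share its reads.

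Uninjured cortex and white matter differed in nearly all of these genes. Filament genes, Map1b and Stmn2 were higher in cortex IP, whereas Kif5a and Mapt were lower there than in white matter IP. Of the 10 genes, 6 were called higher in cortex (12% of all 11815 genes tested were) and 2 lower (15.5% of all genes were) by edgeR's quasi-likelihood test at a Benjamini-Hochberg adjusted p under 0.05. That test and threshold apply throughout, with p adjusted over all genes of a comparison. The median log2 fold change was 2.46 over the 10 genes, beside -0.23 over all 11815 genes tested.

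Among the filaments, Nefl had 533, 436, 547, 740.1 and 451 CPM in cortex IP, against 10.3, 13.9, 55.0, 26.4 and 24.5 CPM in white matter IP. Nefm had 1214, 490.5, 1480.0, 1119 and 748 CPM in cortex, against 16.4, 6.95, 12.7, 45.2 and 5.85 CPM in white matter. For both genes the lowest cortical library stood far above the highest white matter library, with log2 fold changes of 3.90 ± 0.40 for Nefl (adjusted p 3.4e-06) and 5.32 ± 0.58 for Nefm (adjusted p 6.65e-06), each ± SE. Nefh, the heavy chain, averaged 268 ± 100.2 CPM in cortex and 13.6 ± 13.96 CPM in white matter (SD, n = 5 each; log2 fold change 3.89 ± 0.76). Ina averaged 301 ± 63.9 CPM in cortex and 27.2 ± 34.9 CPM in white matter (log2 fold change 3.05 ± 0.57), and 1 white matter library, replicate 3, held 89.2 CPM. The groups did not overlap for any of the 4 filament genes. Overlap, here and below, was examined for the 10 genes alone, so its share over all genes is not known.

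The motors and tau went the other way or did not pass. Kif5a had 1809, 1634, 2082, 2788 and 1609 CPM in cortex IP, against 4223, 6596, 5697, 6840.0 and 6912 CPM in white matter IP, so that every white matter library exceeded every cortical one (log2 fold change -2.13 ± 0.23, adjusted p 6.36e-06). Mapt had 229, 197, 159, 259 and 222 CPM in cortex and 389, 544, 394, 333 and 273 CPM in white matter, again without overlap (log2 fold change -1.38 ± 0.24, adjusted p 0.000427). Kif1a averaged 1820.3 ± 298 CPM in cortex and 1458 ± 443 CPM in white matter, with overlapping libraries. Map1b averaged 4692 ± 1049 CPM in cortex and 909 ± 244 CPM in white matter (log2 fold change 1.88 ± 0.23), and Stmn2 197 ± 43.8 CPM in cortex and 7.28 ± 5.32 CPM in white matter (log2 fold change 4.26 ± 0.54). Tubb3 was at 38.8 to 81.6 CPM in cortex and 1.47 to 26.2 CPM in white matter, without overlap, but its log2 fold change of 1.36 ± 0.59 did not pass (adjusted p 0.102, and 0.0242 to 0.216 over 16 alternatives, of which DESeq2 and limma voom called it).

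In input RNA, 7 genes were called higher in cortex (12.8% of all 12660 genes were), namely Nefl, Nefm, Nefh, Ina, Map1b, Stmn2 and Tubb3, and Kif5a, Kif1a and Mapt were called lower (14% of all genes were). Kif1a thus had a lower mean in cortex in input (424 CPM in cortex and 898 CPM in white matter). In IP its mean CPM was higher in cortex, but its fitted log2 fold change was below 0 there too. Kif5a, Kif1a and Mapt were the 3 genes of the 10 with IP fold changes below 0, and Kif1a was not called. Nefm had 439, 715, 875, 1224 and 993 CPM in cortex input, against 5.78, 31.9, 12.4, 6.38 and 18.3 CPM in white matter input (log2 fold change 6.07 ± 0.49). Kif5a had 320.0, 531, 679, 619 and 488 CPM in cortex input, against 2381, 3368, 2819, 2953 and 2242 CPM in white matter input (log2 fold change -2.19 ± 0.25). No cortical input library overlapped a white matter one for any of the 10 genes, and how many of all genes were without overlap was not counted. Kif1a, with a log2 fold change of -0.91 ± 0.27, did not pass once cortex input replicate 4 was left out (adjusted p 0.0912; 0.00401 to 0.0912 over 16 alternatives).

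Per kilobase of exon, Map1b (296 CPM per kb) and Kif5a (284) had the highest mean levels of the 10 genes in uninjured cortex IP, followed by Kif1a (195), Nefm (175), Nefl (160.1), Ina (92.8) and Nefh (67.2). In uninjured white matter IP the order was Kif5a (866 CPM per kb), Kif1a (156), Map1b (57.4) and Mapt (51.3), while the other 6 genes lay between 1.30 CPM per kb (Stmn2) and 8.40 CPM per kb (Ina). Markers of other cells differed between the regions too. Over all genes 12% were called higher in cortex IP and 15.5% lower. In IP, 10 of 15 neuron markers were called higher in cortex, with sums of 7540.0 to 13116 CPM in cortex and 610.4 to 1367 CPM in white matter. All 10 oligodendrocyte markers were called lower in cortex, with sums of 1825 to 2605 CPM in cortex and 31513 to 53707 CPM in white matter. No marker in either list was at 0 in all libraries of a group, and the part of these cells in the results was not tested. In the wider lists, 5 of 16 membrane skeleton genes were called higher in cortex IP and 5 lower. Nfasc, the neurofascin of nodes and paranodes, had a log2 fold change of -2.43 ± 0.19.

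**Figure D1:**
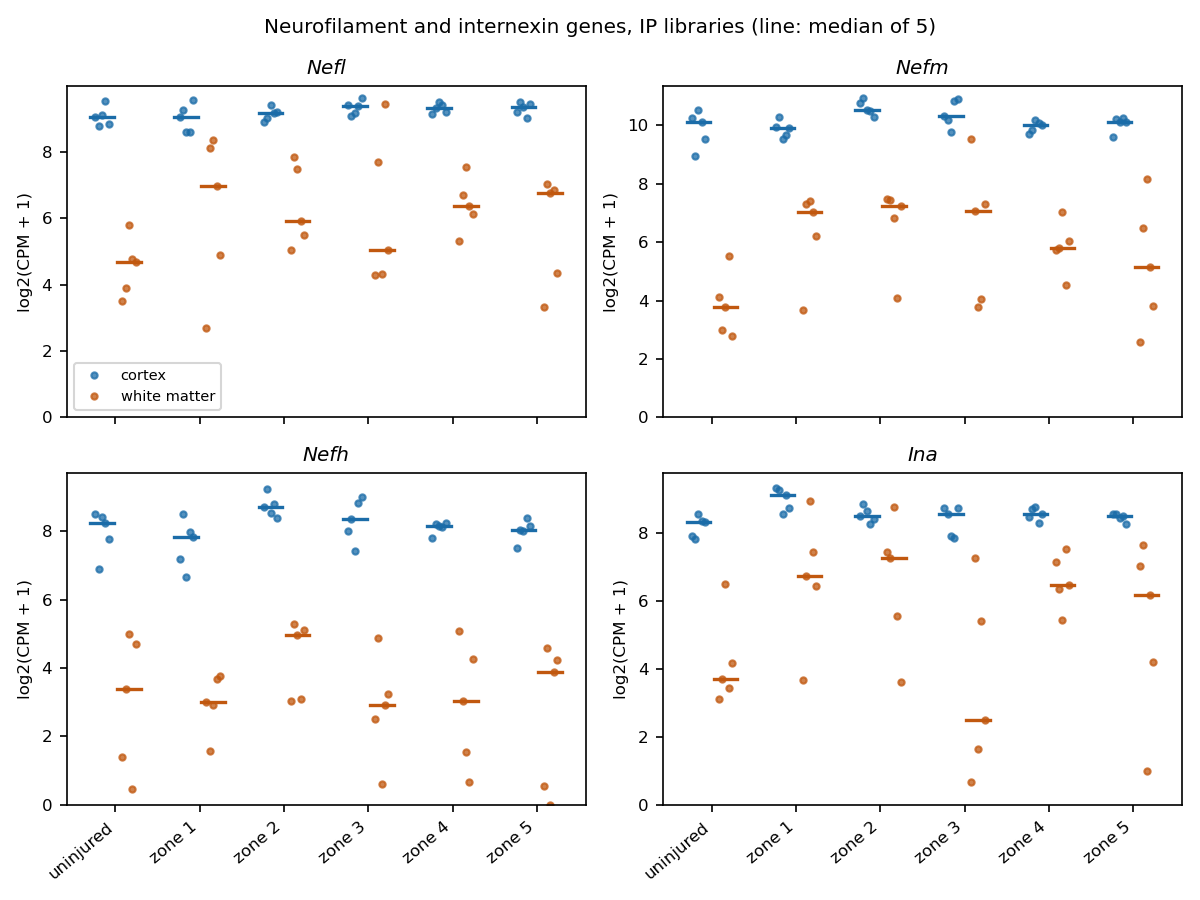
Each point is 1 IP library, as log2(CPM + 1), for the 4 filament genes in uninjured tissue and zones 1 to 5, with cortex to the left of white matter in each pair and lines at the median of 5 libraries. Cortical Nefl libraries of uninjured tissue lie at 436 to 740.1 CPM and white matter ones at 10.3 to 55.0 CPM, and white matter libraries of zone 3 spread over 18.6 to 690.0 CPM.

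The motors, tau and part of the filaments were higher in cortical IP than in cortical input. In uninjured cortex 5 of the 10 genes were called higher in IP than in input (12% of all 11280 genes were) and none lower, and after stroke 7 were called higher (13.6% of all 11476 genes were) and none lower. Kif1a, Kif5a, Mapt, Nefh and Nefl were called in both cohorts, and Tubb3 and Ina in the stroke cohort. Nefm, Map1b and Stmn2 were called in neither. The median log2 fold change after stroke was 1.05 over the 10 genes, beside -0.06 over all 11476 genes tested, and in uninjured cortex it was 0.82 over the 10 genes, beside -0.11 over all 11280 genes tested.

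Kif5a had 2011, 1647 and 2282 CPM in stroke IP libraries, against 506, 324 and 608 CPM in stroke input (log2 fold change 1.83 ± 0.16, adjusted p 3.58e-05). Kif1a had 2127, 1864 and 2125 CPM in stroke IP, against 411, 604 and 441 CPM in stroke input (log2 fold change 1.79 ± 0.20). In uninjured cortex the fold changes of these motors were 1.58 ± 0.26 for Kif5a and 1.80 ± 0.27 for Kif1a on the log2 scale, and no IP library overlapped an input library in either cohort. Mapt averaged 215 ± 19.5 CPM in stroke IP and 59.2 ± 17.1 CPM in stroke input (SD, n = 3 each; log2 fold change 1.63 ± 0.25), and 213 ± 37.3 CPM in uninjured IP and 70.6 ± 37.3 CPM in uninjured input (n = 5 each; log2 fold change 1.27 ± 0.31).

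Of the filaments, Nefl averaged 609 ± 137 CPM in stroke IP and 261 ± 91.6 CPM in stroke input (log2 fold change 1.00 ± 0.20), and 541 ± 121 CPM in uninjured IP and 215 ± 76.2 CPM in uninjured input (log2 fold change 1.00 ± 0.28). Nefh averaged 453 ± 56.2 CPM in stroke IP and 177 ± 22.3 CPM in stroke input (log2 fold change 1.09 ± 0.21), and 268 ± 100.2 CPM in uninjured IP and 106 ± 15.8 CPM in uninjured input (log2 fold change 1.04 ± 0.29). Nefm, transcribed next to Nefl, stood at 1392, 1335 and 1737 CPM in stroke IP and 1179.8, 992 and 1055 CPM in stroke input, and at 1214, 490.5, 1480.0, 1119 and 748 CPM in uninjured IP and 439, 715, 875, 1224 and 993 CPM in uninjured input. Its IP libraries overlapped the inputs in uninjured cortex, and in the stroke cohort they lay above them without passing the test (adjusted p 0.301). Ina was higher in stroke IP than in stroke input by 0.90 ± 0.21 on the log2 scale. Its 0.64 ± 0.27 for IP against input in uninjured cortex did not pass (adjusted p 0.0841; 0.0308 to 0.242 over 16 alternatives, passing without uninjured input replicate 2). Map1b averaged 4966 ± 426 CPM in stroke IP and 3378 ± 419.6 CPM in stroke input, and Stmn2 186 ± 18.8 CPM in stroke IP and 138 ± 32.7 CPM in stroke input, with overlapping libraries for Stmn2 and neither called. The Map1b libraries did not overlap (log2 fold change 0.30 ± 0.14, adjusted p 0.115), and Map1b passed with limma voom (adjusted p 0.0287) and with no low-count filter (0.0352), within 0.0287 to 0.281 over 12 alternatives.

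Single libraries decided some of these calls. The Nefl call in uninjured cortex ended without IP replicate 4 (adjusted p 0.0528; 0.00301 to 0.0528 over 16 alternatives) and that of Nefh without IP replicate 1 (0.0503; 0.00228 to 0.0503 over 16). Tubb3 averaged 48.0 ± 4.86 CPM in stroke IP and 15.7 ± 4.52 CPM in stroke input (log2 fold change 1.38 ± 0.39, adjusted p 0.0195). Its call ended when stroke IP replicate 1, 2 or 3 was left out, with adjusted p of 0.0859, 0.0915 and 0.0641, and the 12 alternatives gave 0.00217 to 0.0915. Whether enrichment differed between stroke and uninjured cortex was tested directly, and none of the 10 genes passed (0% of all 15150 genes did). Over all genes edgeR found 738 at an unadjusted p under 0.05 in that test, DESeq2 called 0 higher and 2 lower, and limma voom 0. None of the 10 genes had an unadjusted p under 0.05, and neither DESeq2 nor voom called one.

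Genes of other cytoskeleton and motor lists were also called in cortical IP against input. Over all genes, 1559 of 11476 were higher and 1710 lower after stroke, and 1349 of 11280 higher and 1509 lower in uninjured cortex. Of 16 membrane skeleton and cytolinker genes, 11 were called higher in IP than in input in the stroke cohort and 10 in uninjured cortex, and none lower. Plec, the cytolinker plectin, was higher in IP by 2.59 ± 0.27 in the stroke cohort and 3.02 ± 0.38 in uninjured cortex on the log2 scale. Of 22 kinesin, dynein and dynactin subunits, 10 were called higher in IP and 2 lower in the stroke cohort, and 8 higher and 2 lower in uninjured cortex. Dync1h1, the dynein heavy chain, was higher by 1.67 ± 0.16 in stroke IP than in stroke input. Of 24 microtubule-associated and growth cone genes, 10 were called higher in IP and 2 lower in the stroke cohort, and 6 higher and 2 lower in uninjured cortex. Map1a, the sister of Map1b, was higher by 2.17 ± 0.14 in stroke IP than in stroke input. IP and input also differ in RNA type on the labels, which call IP RNA polyA RNA and input RNA total RNA, so that the pull-down and the RNA type cannot be told apart. In the stroke cohort 5 of 15 neuron markers were called higher in IP and 3 lower.

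**Figure D2:**
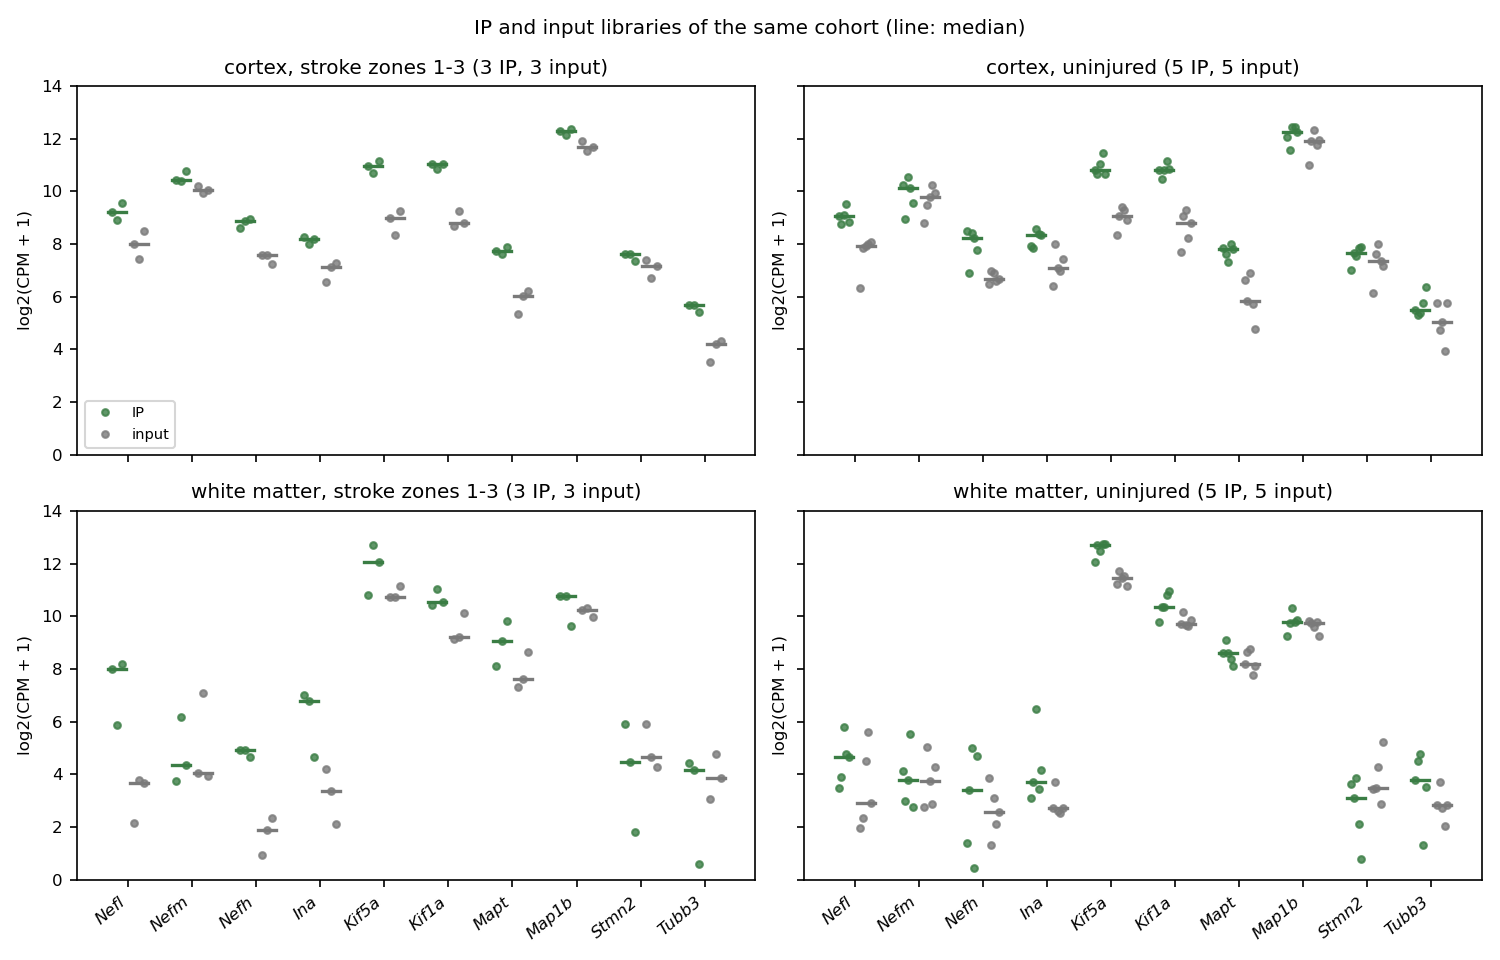
Each point is 1 library, as log2(CPM + 1), with IP to the left of input for each gene and lines at the median. Stroke cohorts have 3 and uninjured cohorts 5 libraries of each kind. In cortex the IP points of Kif5a, Kif1a and Mapt clear the input points in both cohorts, while Stmn2 overlaps in both.

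In white matter the motors were the genes that passed. In uninjured white matter Kif5a had 4223, 6596, 5697, 6840.0 and 6912 CPM in IP, against 2381, 3368, 2819, 2953 and 2242 CPM in input, and no IP library overlapped an input (log2 fold change 1.55 ± 0.17, adjusted p 4.6e-05). Kif1a had 887, 1309, 1293, 1808 and 1994 CPM in IP, against 825, 1135, 814, 796 and 919 CPM in input (log2 fold change 1.11 ± 0.22, adjusted p 0.0146). Higher in IP were thus 2 of the 10 genes (0.527% of all 11949 genes were). At an unadjusted p under 0.05 were 5 of the 10, beside 1349 of all genes. Among them Ina (log2 fold change 2.35, adjusted p 0.274), Mapt (0.66, 0.301) and Map1b (0.56, 0.261) did not pass. DESeq2 called Ina (adjusted p 0.0458; 0.0458 to 0.646 over 16 alternatives). The call of Kif1a ended without IP replicate 5 or without input replicate 1, 3 or 5, with adjusted p between 0.0588 and 0.0671, and the 16 alternatives gave 0.000178 to 0.0671. In the same comparison 3 of 20 tested motor subunits were called higher, among them Kif5c (1.59 ± 0.22) and Kif1b (0.74 ± 0.14), and Camk2a, a kinase of excitatory neurons, was higher by 2.58 ± 0.33 on the log2 scale.

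After stroke, no gene was called between white matter IP and input (0% of all 11688 genes, with 776 at an unadjusted p under 0.05). Over all genes DESeq2 called 64 higher and 68 lower, and limma voom 0. Among the 10 genes 6 reached an unadjusted p under 0.05, and 1 passed with DESeq2 and 0 with voom. Nefl had 252, 57.8 and 289 CPM in stroke IP, against 3.42, 12.7 and 11.8 CPM in stroke input, without overlap (log2 fold change 4.80 ± 0.96, adjusted p 0.561, 0.000231 to 0.967 over 12 alternatives). Nefm had 12.5, 70.5 and 19.2 CPM in stroke IP and 15.5, 135 and 14.1 CPM in stroke input, so its libraries overlapped while those of its neighbour did not. Nefh, Ina and Kif1a also stood above input without overlap. The enrichment in stroke against uninjured white matter differed for no gene (0% of all 15876 genes, with 1454 at an unadjusted p under 0.05; DESeq2 called 60 higher and 71 lower, limma voom 0). Of the 10 genes, 1 (Nefl) had an unadjusted p under 0.05 there, and DESeq2 and voom called 0.

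Across the cortical zones, Ina was higher in zone 1 than in uninjured cortex and fell over zones 1 to 5, whereas Map1b rose over zones 1 to 5. All zones of a region were compared with the same 5 uninjured libraries. The neurofilament chains, the motors, tau, Stmn2 and Tubb3 passed no test in any zone or along the zones. Every gene overlapped its uninjured range in every zone.

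Ina had 644, 617, 376, 561 and 427 CPM in zone 1, against 243, 227, 379, 331 and 323 CPM in uninjured cortex. The zone 1 mean was 1.75 times the uninjured mean, and 4 of the 5 zone 1 libraries lay above the highest uninjured one (log2 fold change 0.73 ± 0.20, adjusted p 0.0399). It was the 1 gene of the 10 called higher there (4.81% of all 12526 genes were). The call ended with limma voom (adjusted p 0.114). It also ended without zone 1 replicate 1, 2 or 4, or without uninjured replicate 1, 2, 4 or 5, with adjusted p between 0.0743 and 0.144 and log2 fold changes of 0.62 to 0.75. Over all 18 alternatives the adjusted p was 0.00235 to 0.144.

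Over the zones, Ina averaged 525 ± 118 CPM in zone 1, 378 ± 60.9 in zone 2, 343 ± 99.9 in zone 3, 380.0 ± 48.1 in zone 4 and 356 ± 29.9 CPM in zone 5 (SD, n = 5 each). Its level changed by -0.11 ± 0.04 per zone on the log2 scale (adjusted p 0.0184), 1 of the 10 genes called lower along the zones (13.7% of all 15148 genes were). Without zone 1 replicate 1, 2 or 4 the adjusted p was 0.0635, 0.076 and 0.0613 in that order, and 0.0142 to 0.076 over 32 alternatives. The means of zones 2 to 5 differed by less than their spread.

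Map1b had 4824, 4793, 2857, 3757 and 4276 CPM in zone 1 and 5161, 5318, 5754, 5138 and 5080.2 CPM in zone 5, and no zone 1 library reached the lowest zone 5 library. In uninjured cortex it had 4332, 3066, 5619, 5543 and 4899 CPM. All but 1 library of zone 1 and all but 1 of zone 5 fell within that range. In zone 4 replicate 4 held 4489.8 CPM, and the others lay above the range, at 6130.0 to 6613 CPM. It averaged 4101 ± 821 CPM in zone 1, 4825 ± 589.5 in zone 2, 5405 ± 974 in zone 3, 5955 ± 840.4 in zone 4 and 5290.2 ± 274 CPM in zone 5, with its highest mean in zone 4. The slope was 0.10 ± 0.03 per zone on the log2 scale (adjusted p 0.0134), 1 of the 10 genes called higher along the zones (5.90% of all genes were), and it passed in 32 of 32 alternatives, with slopes of 0.08 to 0.12.

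**Figure D3:**
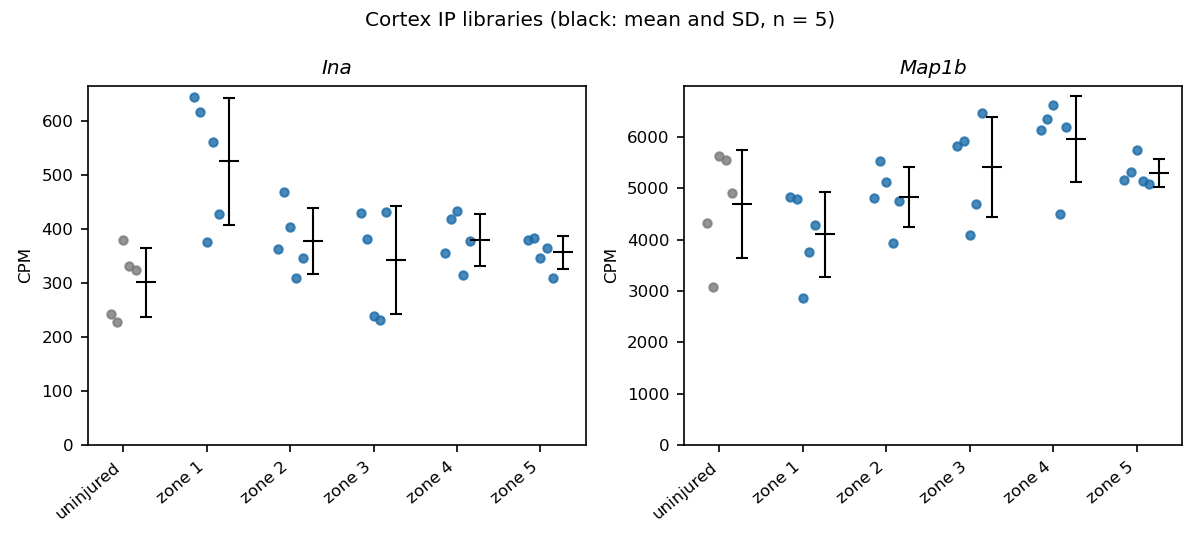
Points are the CPM of each cortical IP library for Ina and Map1b in uninjured cortex and zones 1 to 5, and black marks give the mean and SD of 5 libraries. Ina is highest in zone 1 with a mean of 525 CPM, and Map1b is lowest in zone 1 with a mean of 4101 CPM.

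The promoters of these 2 genes are shown because they moved in opposite directions over the same zones. Each line gives the 250 bases before the transcription start in RefSeq (GRCm38.p6), 5′ to 3′ on the gene's strand. Capitals mark a TATA box (TATAAA) or a GC box (GGGCGG), searched on both strands, so that a GC box on the other strand reads CCGCCC.
Ina, chr19:47014431-47014680, plus strand: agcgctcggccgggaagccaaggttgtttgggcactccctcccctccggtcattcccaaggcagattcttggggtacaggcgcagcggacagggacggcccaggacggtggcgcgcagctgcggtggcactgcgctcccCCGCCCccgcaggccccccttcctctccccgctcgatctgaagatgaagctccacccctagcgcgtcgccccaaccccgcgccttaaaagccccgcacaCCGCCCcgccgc
Map1b, chr13:99516603-99516852, minus strand: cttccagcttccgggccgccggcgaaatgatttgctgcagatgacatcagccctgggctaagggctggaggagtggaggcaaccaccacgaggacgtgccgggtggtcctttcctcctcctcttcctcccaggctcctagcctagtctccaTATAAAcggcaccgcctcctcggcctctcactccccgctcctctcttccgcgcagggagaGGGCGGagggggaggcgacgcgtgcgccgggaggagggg
The Ina window held 2 GC boxes and no TATA box, and the Map1b window held 1 GC box and 1 TATA box. Of 32851 promoters of the same length, 32.7% held the GC box and 12.4% the TATA box, and the matches are a description only. Promoters were found for 4 of the 10 genes.

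No other gene passed in a cortical zone against uninjured cortex. The means were between 0.81 (Nefh in zone 1) and 1.61 (Nefh in zone 2) times the uninjured means. In zone 2 none of the 10 genes passed (3.64% of all 11713 genes did), and Nefm, Nefh and Ina had an unadjusted p under 0.05, beside 1730 of all genes. DESeq2 and limma voom called 0 of the 10. Nefm had 1726, 1952, 1486, 1447 and 1246 CPM in zone 2, against 1214, 490.5, 1480.0, 1119 and 748 CPM in uninjured cortex (log2 fold change 0.63 ± 0.27, adjusted p 0.299). Nefh had 414, 601, 369, 443 and 338 CPM in zone 2, against 362, 119, 343, 301 and 217 CPM in uninjured cortex (log2 fold change 0.68 ± 0.28, adjusted p 0.262). Both chains had their highest zone mean in zone 2, and 1 uninjured library for Nefm and 2 for Nefh reached into the zone 2 range. Without uninjured replicate 3, Nefm passed (log2 fold change 0.87, adjusted p 0.0449; 0.00707 to 0.492 over 17 alternatives).

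Nefl, the light chain, moved little: it averaged 529.7 ± 152 CPM in zone 1, 568 ± 77.7 in zone 2, 648 ± 101 in zone 3, 634 ± 61.7 in zone 4 and 636 ± 85.6 CPM in zone 5, and 541 ± 121 CPM in uninjured cortex. Kif5a averaged 2052, 1854, 2371, 2253 and 2282 CPM in zones 1 to 5, and 1985 CPM in uninjured cortex. Kif1a averaged 2268, 2034, 2117, 2113 and 2058 CPM in zones 1 to 5, and 1820.3 CPM in uninjured cortex. Neither motor had an unadjusted p under 0.05 in any cortical zone.

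In zones 3, 4 and 5 none of the 10 genes was called (0.0405% of all 12356 genes in zone 3, 0% of all 12140 in zone 4 and 0% of all 12392 in zone 5). At an unadjusted p under 0.05 edgeR found 727 genes in zone 3, 832 in zone 4 and 694 in zone 5. Over all genes DESeq2 called 14 higher and 0 lower in zone 3, 13 higher and 3 lower in zone 4 and 0 in zone 5. With limma voom 2 higher and 0 lower were called in zone 3, 0 in zone 4 and 0 in zone 5. Neither called any of the 10 genes. Of the 10, 0 had an unadjusted p under 0.05 in zone 3, 2 in zone 4 and 0 in zone 5. Stmn2 had 296, 347, 273, 232 and 240.1 CPM in zone 4, against 128, 203, 188, 232 and 237 CPM in uninjured cortex, with 4 of 5 zone 4 libraries above the uninjured maximum (log2 fold change 0.43 ± 0.14, adjusted p 0.54). Tubb3 had 66.3, 79.1, 70.0, 78.7 and 69.1 CPM in zone 4, against 43.98, 38.8, 41.1, 53.9 and 81.6 CPM in uninjured cortex (log2 fold change 0.42 ± 0.19, adjusted p 0.676). Input RNA of the cortical stroke cohort against uninjured input gave no call among the 10 genes either (0.00740% of all 13515 genes), by edgeR, DESeq2 or voom. Nefh alone of the 10 had an unadjusted p under 0.05 there, beside 675 of all genes. Nefh had 189.9, 189.9 and 151 CPM in stroke input, against 88.9, 126, 120.0, 96.3 and 100.3 CPM in uninjured input, and an adjusted p of 0.976.

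Around these genes, other tubulins changed in zone 1. Of 12 tubulins, 4 were called higher in cortical zone 1 than in uninjured cortex (4.81% of all 12526 genes were). Among them were Tubb6, a tubulin of non-neuronal cells, by 3.38 ± 0.63 on the log2 scale and Tubb4a, which is abundant in oligodendrocytes, by 1.01 ± 0.18. Nfasc was higher by 1.46 ± 0.17 in zone 1 and 0.81 ± 0.17 in zone 2, and it fell over zones 1 to 5, at -0.37 ± 0.04 per zone. Map4, a microtubule-binding protein of many cell types, was higher by 0.73 ± 0.19 in zone 1. No kinesin, dynein or dynactin subunit of 22 passed in zone 1 or in zone 2, and none of the 12 kinases and phosphatases did. Over all genes 602 were higher and 62 lower in zone 1, and 366 higher and 60 lower in zone 2. Along the zones 5 of 24 microtubule-associated and growth cone genes rose, with Dclk1 at 0.16 ± 0.03 per zone (5.90% of all 15148 genes rose). Of the 24, 2 fell (13.7% of all genes did).

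Markers of other cells moved over the same zones. Over all genes 4.81% were called higher in zone 1, and 5.90% rose and 13.7% fell over zones 1 to 5. Of 10 oligodendrocyte markers, 8 were called higher in zone 1, with sums of 5352 to 9072 CPM in zone 1 and 1825 to 2605 CPM in uninjured cortex, and all 10 fell over zones 1 to 5. All 10 microglia and macrophage markers were called higher in zone 1 and fell over the zones, with sums of 1371 to 2347 CPM in zone 1 and 95.4 to 234 CPM in uninjured cortex. No marker of these lists was at 0 in all libraries of a group. Of 15 neuron markers none was called in zone 1, with sums of 7451 to 12542 CPM in zone 1 and 7540.0 to 13116 CPM in uninjured cortex, and 5 rose over the zones. Their part in the Ina and Map1b results was not tested.

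**Figure D4:**
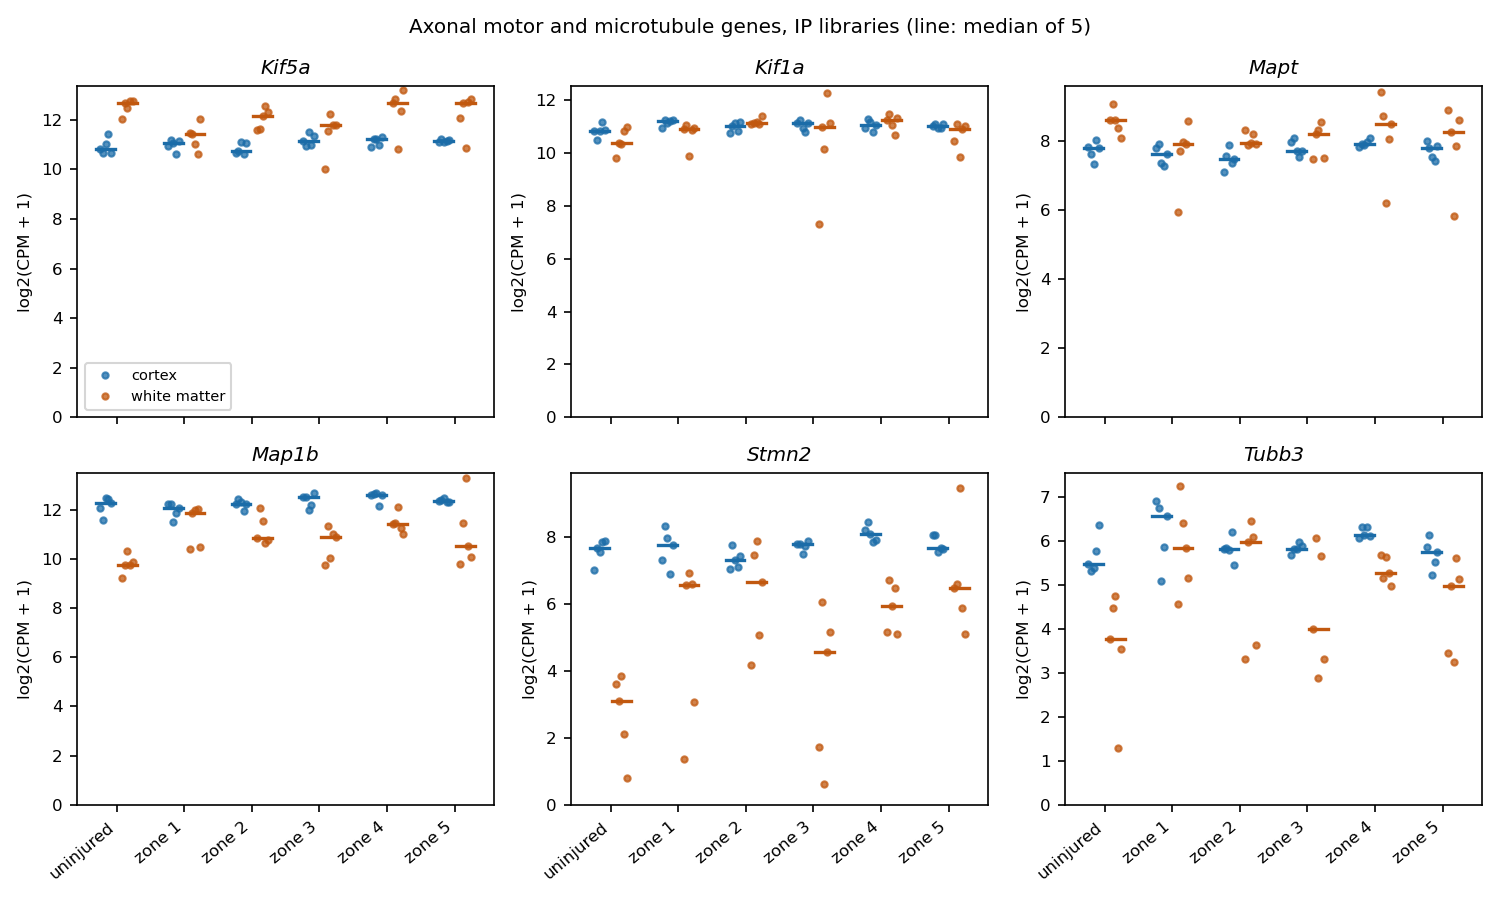
Each point is 1 IP library, as log2(CPM + 1), for the motors and microtubule genes in uninjured tissue and zones 1 to 5, with cortex to the left of white matter in each pair and lines at the median of 5. In uninjured tissue every white matter library lies above every cortical one for Kif5a and Mapt, and the white matter median of Stmn2 is higher in each zone than in uninjured tissue.

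In white matter, Stmn2 and Map1b were called higher in zone 2 than in uninjured tissue, and in all 5 zones the means of Nefl, Nefm, Ina and Tubb3 were also above the uninjured means, by 1.49 to 12.1 times, and none of these 4 genes passed. Nefh, the other filament gene that was low in uninjured white matter, had a mean CPM above the uninjured one in zone 2 alone. Kif5a and Mapt, which were higher in uninjured white matter than in cortex, did not pass. The mean CPM of Mapt was below the uninjured one in all 5 zones, and that of Kif5a in all but zone 4. Kif1a, also high in uninjured white matter, had means above the uninjured one in all 5 zones, by 1.16 to 1.59 times, and was not called. In zone 3 the mean CPM of Nefh, Kif5a and Mapt was below the uninjured one, while 9 of the 10 fitted log2 fold changes were above 0. Mean CPM and the fitted fold changes, which use TMM scaling, thus differ in direction there for some genes. The median log2 fold change in zone 1 was 1.79 over the 10 genes, beside 0.04 over all 10438 genes tested, and in zone 2 it was 1.30 over the 10 genes, beside -0.02 over all 10522 genes tested.

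Stmn2, the gene of growing axons, had 17.0, 175, 237, 32.6 and 101 CPM in zone 2, against 11.3, 7.58, 13.5, 3.30 and 0.731 CPM in uninjured white matter. Every zone 2 library was above every uninjured library (log2 fold change 3.72 ± 0.84, adjusted p 0.0336). Map1b had 1818, 4309.7, 2961, 1605 and 1740.4 CPM in zone 2, against 604, 858, 1285, 870.2 and 928 CPM in uninjured white matter, again without overlap (log2 fold change 1.18 ± 0.28, adjusted p 0.0416). These were 2 of the 10 genes called higher in zone 2 (0.656% of all 10522 genes were). Kif1a had 2193, 2199, 2309, 2159 and 2701 CPM in zone 2, against 887, 1309, 1293, 1808 and 1994 CPM in uninjured white matter, and did not overlap either, but did not pass (adjusted p 0.511).

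Both zone 2 calls hung on single libraries. That of Stmn2 ended without zone 2 replicate 2 or 3 or uninjured replicate 1, 2, 4 or 5, with adjusted p of 0.0628 to 0.11 (0.000101 to 0.323 over 17 alternatives). That of Map1b ended without zone 2 replicate 1, 2 or 3 or uninjured replicate 1, 2, 4 or 5, with adjusted p of 0.0528 to 0.135 (0.00212 to 0.703 over 17). Over the alternatives the log2 fold change was 3.22 to 4.00 for Stmn2 and 0.99 to 1.33 for Map1b. With all IP groups of white matter in 1 fit, neither passed. Nefm stood at 178, 175, 113, 16.1 and 149.7 CPM in zone 2, against 16.4, 6.95, 12.7, 45.2 and 5.85 CPM in uninjured white matter (log2 fold change 2.59 ± 0.73, adjusted p 0.0853). It passed without zone 2 replicate 4 (adjusted p 0.0339) or uninjured replicate 4 (0.0394), within 0.00454 to 0.598 over 17 alternatives. Ina, at 11.4 to 438 CPM in zone 2 and 7.68 to 89.2 CPM in uninjured white matter, passed without uninjured replicate 3 (0.0429; 0.00646 to 0.545 over 17).

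In zone 1 none of the 10 genes was called (0.450% of all 10438 genes were, 40 higher and 7 lower; with DESeq2-method size factors 31 were higher and 1 lower). By edgeR 7 of the 10 reached an unadjusted p under 0.05, beside 1463 of all 10438 genes. DESeq2 called 5 of the 10, beside 406 higher and 183 lower over all genes. With limma voom 2 of the 10 passed, beside 93 higher and 126 lower over all genes. Map1b had 1357, 3687, 4063, 4126 and 1416 CPM in zone 1, against 604, 858, 1285, 870.2 and 928 CPM in uninjured white matter, without overlap (log2 fold change 1.51 ± 0.42, adjusted p 0.11). Kif5a had 2832, 2726, 2068, 1574 and 4199 CPM in zone 1, against 4223, 6596, 5697, 6840.0 and 6912 CPM in uninjured white matter, with every zone 1 library below every uninjured one (log2 fold change -1.13 ± 0.43, adjusted p 0.23). Without zone 1 replicate 1, a shallow library, both passed: Map1b at 1.51 (adjusted p 0.0175; 0.00226 to 0.301 over 18 alternatives) and Kif5a at -1.48 (0.0292; 0.00226 to 0.533 over 18).

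The filament genes in zone 1 divided by library. Nefl had 5.50, 274, 325, 123 and 28.6 CPM in zone 1, against 10.3, 13.9, 55.0, 26.4 and 24.5 CPM in uninjured white matter, and Ina had 11.8, 105, 494, 176 and 86.9 CPM in zone 1, against 7.68, 12.01, 89.2, 9.91 and 17.2 CPM in uninjured white matter. Replicates 2, 3 and 4 were high for both genes, and replicate 1 did not exceed the uninjured range. The log2 fold changes were 2.27 ± 0.86 for Nefl (adjusted p 0.23) and 2.52 ± 0.87 for Ina (adjusted p 0.195). With the shallow zone 1 replicates 1 and 5 left out Nefl reached 2.88 (adjusted p 0.0149; 0.0149 to 0.618 over 18 alternatives) and Ina 3.00 (0.0411; 0.0405 to 0.46 over 18). Nefh did not share this, at 1.99 to 12.7 CPM in zone 1 and 0.367 to 31.2 CPM in uninjured white matter.

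Further out no call was made in zone 3 (0% of all 9220 genes, with 1054 at an unadjusted p under 0.05; DESeq2 called 72 higher and 38 lower, limma voom 2 higher and 0 lower), in zone 5 (0% of all 10195 genes, with 931 at an unadjusted p under 0.05; DESeq2 called 13 higher and 9 lower, limma voom 0), or among the 10 genes in zone 4 (0.0666% of all 10508 genes). Of the 10 genes, 2 had an unadjusted p under 0.05 in zone 3, 5 in zone 4 and 4 in zone 5. Over all 10508 genes of zone 4, 1148 had an unadjusted p under 0.05. There DESeq2 called 213 higher and 104 lower, and limma voom 3 higher and 6 lower. DESeq2 called 1, 2 and 0 of them in zones 3, 4 and 5, and voom 0, 1 and 0. Map1b in zone 4 was the nearest to the threshold, with 2727, 2832, 4397, 2429 and 2088 CPM, against 604, 858, 1285, 870.2 and 928 CPM in uninjured white matter, and no overlap (log2 fold change 1.54 ± 0.29, adjusted p 0.0504). It passed without zone 4 replicate 3 (log2 fold change 1.29, adjusted p 0.0236) or replicate 5 (1.67, 0.0307), within 5.7e-05 to 0.546 over 17 alternatives. Stmn2 had 34.6, 104, 60.7, 88.5 and 33.5 CPM in zone 4, with every library above the uninjured 0.731 to 13.5 CPM (log2 fold change 3.00 ± 0.86, adjusted p 0.207). Kif5a had 6579, 7357, 1834, 5279 and 9441 CPM in zone 4, on both sides of its uninjured range.

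In zone 5 the values turned on 1 library. Stmn2 had 88.7, 95.8, 702, 57.4 and 33.6 CPM there, all above the uninjured libraries, and Map1b had 889, 2808, 9885, 1463 and 1075 CPM. Replicate 3, a shallow library, held the highest value of both genes by far. The log2 fold change of Stmn2 was 6.14 ± 1.26 (adjusted p 0.166), and over 17 alternatives it was 3.14 to 7.59, the lowest of these without replicate 3. It passed when replicate 1, 2, 4 or 5 was left out, with adjusted p of 0.0192 to 0.0487 (5.59e-05 to 0.802 over 17 alternatives). Zone 3 held similar single libraries, with Nefl at 18.6, 207, 18.8, 690.0 and 32.0 CPM and Nefm at 738, 132, 12.9, 15.6 and 158 CPM, where replicate 4 was high for Nefl and replicate 1, shallow, for Nefm. Along zones 1 to 5 none of the 10 genes was called (1.93% of all 13750 genes were), by edgeR, DESeq2 or voom. Of the 10, 3 had an unadjusted p under 0.05, beside 1655 of all genes.

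Input RNA of white matter gave no call among the 10 genes between stroke and uninjured mice (0.0550% of all 14552 genes), by edgeR, DESeq2 or voom. Of the 10, 3 had an unadjusted p under 0.05, beside 1400 of all genes. Map1b had 1216, 1274 and 996 CPM in stroke input, against 896, 864, 779.6, 877 and 607 CPM in uninjured input, without overlap (log2 fold change 0.64 ± 0.21, adjusted p 0.317). Kif5a had 1714, 1699 and 2275 CPM in stroke input, against 2381, 3368, 2819, 2953 and 2242 CPM in uninjured input (log2 fold change -0.46 ± 0.17, adjusted p 0.395). Nefl, whose mean was higher in every white matter zone in IP, averaged 9.31 CPM in stroke input and 16.6 CPM in uninjured input. Of the 10 fold changes in input, 5 were above 0 and 5 below.

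In the wider lists, zone 2 of white matter had 2 of 8 tested axon maintenance genes called higher (0.656% of all 10522 genes were). These were Thy1, by 3.09 ± 0.53, and Uchl1, a deubiquitinase abundant in neurons, by 3.47 ± 0.62 on the log2 scale. Basp1 and Map2, proteins of growth cones and of dendrites, were higher by 2.52 ± 0.56 and 1.41 ± 0.33, and Kif21a, a kinesin, was at -1.41 ± 0.32. No tubulin and no kinase or phosphatase passed in zone 2, and in white matter zones 1, 3, 4 and 5 no gene of the 6 lists did.

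Neuron marker sums were also higher in the zones. The sum was 464 to 8509 CPM in zone 1, 1843 to 6537 in zone 2, 518 to 5250.2 in zone 3, 2082 to 10469 in zone 4 and 1342 to 4872 CPM in zone 5, and 610.4 to 1367 CPM in uninjured white matter. In zone 2, 3 of 14 tested neuron markers were called higher (0.656% of all 10522 genes were), and 1 in zone 4 (5 of all 10508 genes were). Set against that sum, the 4 filament genes together amounted to a median of 9.26 CPM per 100 CPM of neuron markers in zone 1, 9.08 in zone 2, 10.7 in zone 3, 7.17 in zone 4 and 8.18 in zone 5, and to 6.83 (5.89 to 13.8) in uninjured white matter. In cortex the same ratio had medians of 22.8, 30.7, 21.2, 18.2 and 18.6 in zones 1 to 5, and 19.0 (12.1 to 31.2) in uninjured cortex. Oligodendrocyte markers summed to 7881 to 34964 CPM in zone 1 and 31513 to 53707 CPM in uninjured white matter. In zone 1, 4 of 10 microglia and macrophage markers were called higher (40 of all 10438 genes were). The part of these cells in the white matter results was not tested.

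**Figure D5:**
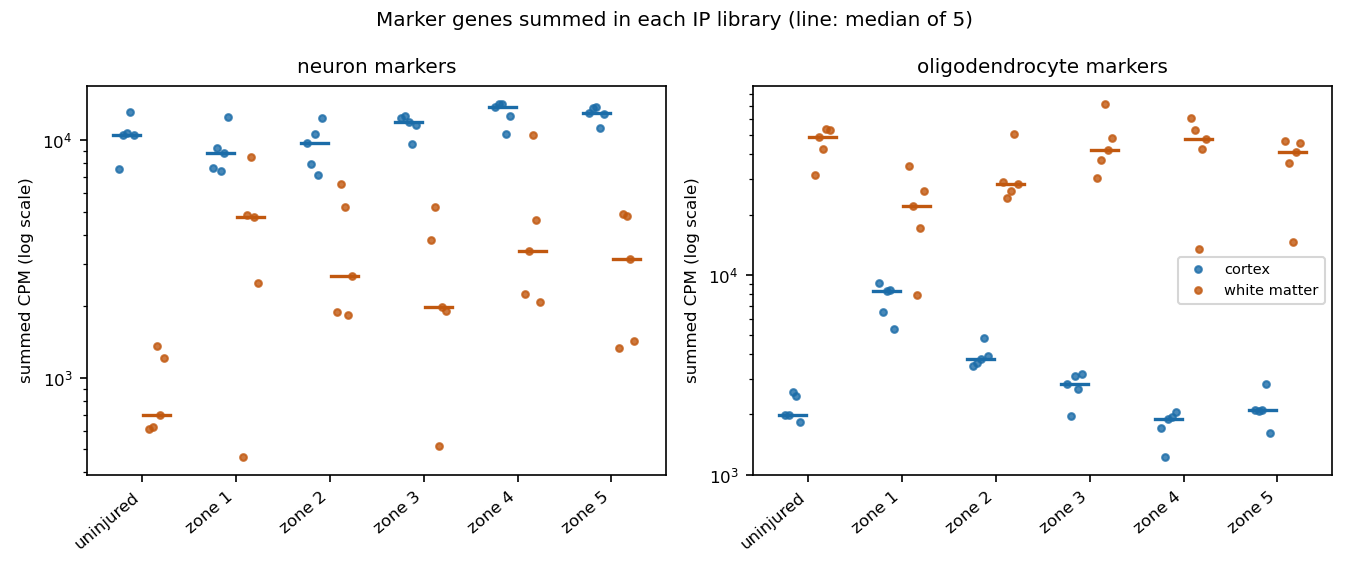
Summed CPM of the 15 neuron markers and of the 10 oligodendrocyte markers in each IP library, on a log scale, for uninjured tissue and zones 1 to 5, with cortex to the left of white matter in each pair and lines at the median of 5. In white matter the median neuron sum is 4746 CPM in zone 1 and 699.8 CPM in uninjured tissue.

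The zone 1 response was then compared between regions in 1 model, as the cortical log2 fold change minus that of white matter. Map1b was the 1 gene of the 10 that passed, at -1.77 ± 0.42 (adjusted p 0.0273; 1.03% of all 14601 genes were called lower). Its mean in zone 1 was 4101 CPM in cortex, against 4692 CPM uninjured, and 2929.7 CPM in white matter, against 909 CPM uninjured. The call ended without cortex zone 1 replicate 3 or 4 or cortex uninjured replicate 4 or 5, with adjusted p of 0.0518 to 0.062 (0.000314 to 0.062 over 27 alternatives). Nefl (-2.37 ± 0.80), Nefm (-2.46 ± 0.71) and Stmn2 (-2.75 ± 0.94) did not pass, and all 3 passed without white matter zone 1 replicate 1 or replicate 5, the shallow ones. Their adjusted p without replicate 1 was 0.00898 for Nefl, 0.00426 for Nefm and 0.0133 for Stmn2, where their alternatives ranged over 0.00164 to 0.208, 0.00426 to 0.116 and 0.00322 to 0.2. Nefm also passed without white matter uninjured replicate 4 (0.00777), Ina without white matter uninjured replicate 3 (0.0418; 0.0418 to 0.629 over 27 alternatives) and Kif5a without white matter zone 1 replicate 1 (0.0237; 0.00204 to 0.576 over 27). Over all genes this test called 124 higher and 150 lower, and with DESeq2-method size factors 74 higher and 196 lower.

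The cortical spread between replicates was small and that of white matter large. The median coefficient of variation over the 6 IP groups was 11.9% for Kif1a and 30.5% for Nefh in cortex, the lowest and highest of the 10 genes, and 28.5% for Kif1a and 105% for Ina in white matter. Over the 12 IP group means of both regions, the genes whose pattern was most like the mean pattern of Nefl, Nefm and Nefh were Luzp1 (Pearson r 0.989), Sidt1 (0.988), Mprip (0.985), Plxna4 (0.981), Map7d2 (0.980) and Ntm (0.979), among 9884 genes compared. Of the 10 genes themselves Nefm was at 0.988 and, at the other end, Mapt at -0.842 and Kif5a at -0.899. These values describe 12 group means that include both regions.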

How the data were processed

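RNA-seq gene counts of 82 libraries were analysed. The authors deposited a table of raw counts per gene, not normalized. Reads were aligned to GRCm38 (mm10) per the submitters' processing notes, while for the aligner, counting tool, annotation and strand setting nothing is stated in the labels or files used here. Per the labels' protocols, tissue was laser captured from perfused, cryosectioned brain and libraries were made with an amplification kit from little RNA. Column names were matched to the labels' titles.

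Counts of mt-Rnr1, mt-Rnr2, Gm42418, CT010467.1, Gm23935 and Lars2 were set aside, and CPM was taken over the rest. The fits also left out other annotated ribosomal RNA genes. Each comparison was fitted on all remaining genes with edgeR 4.0.16 (robust quasi-likelihood test after TMM, genes kept by filterByExpr at min.count 10) in R 4.3.3, on the libraries of the groups compared, and p-values were adjusted over all genes tested by Benjamini-Hochberg at 0.05. Trends took zone number as a covariate. Alternatives were DESeq2 1.42.0, limma 3.58.1 (voom), DESeq2-method size factors in edgeR, no low-count filter, and the 6 genes and other ribosomal RNA genes kept. Further ones were replicate number as a block, shallow libraries left out, all IP groups of a region in 1 fit, and each library left out in turn. Scripts were tested on simulated counts. No 2 libraries of a group agreed within sampling noise (152 pairs compared, chi-square over degrees of freedom at least 3.16).

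All 10 genes were tested in every comparison, and not all of them are named in the text of each. From each pathway list the 2 tested genes with the lowest adjusted p could be named, others were counted. Members and lists were chosen with earlier results of these data known. Sequences are from RefSeq (GRCm38.p6) and positions from GENCODE M21, and 48349 of 48795 identifiers matched a symbol.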

Additional observations from a re-analysis of the deposited data

Results flagged for a closer look

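In 14 of 140 checks of a gene in a group of 5 libraries, 1 library stood apart from the other 4, by a gap over 0.71 of the group's range (Dixon's criterion). Chance flags about 1 in 20 such groups. Of the 14, 11 were in white matter and 3 in cortex. In white matter zone 3, Nefl stood at 690.0 CPM in replicate 4 (the others at 18.6 to 207), Nefm at 738 CPM in replicate 1 (others 12.9 to 158), and replicate 2 held 28.6 CPM of Nefh (others 0.537 to 8.48) and 154 CPM of Ina (others 0.582 to 41.6). In white matter zone 5, replicate 3 had 9885 CPM of Map1b (others 889 to 2808) and 702 CPM of Stmn2 (others 33.6 to 95.8). Kif1a was low at 933 CPM in white matter zone 1 replicate 3 (others 1875 to 2098) and high at 2701 CPM in zone 2 replicate 5 (others 2159 to 2309). In uninjured white matter, Nefm was at 45.2 CPM in IP replicate 4 (others 5.85 to 16.4), Ina at 89.2 CPM in IP replicate 3 (others 7.68 to 17.2) and at 12.1 CPM in input replicate 2 (others 4.85 to 5.61). In cortex, Nefl was low at 80.7 CPM in uninjured input replicate 1 (others 231 to 267), Nefm low at 784 CPM in zone 5 replicate 1 (others 1113 to 1217) and Map1b low at 4489.8 CPM in zone 4 replicate 4 (others 6130.0 to 6613). White matter zone 3 replicate 1 and zone 5 replicate 3 are among the 5 shallow libraries, and the part of depth in their values was not tested.

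The zone 1 response of Map1b differed between the regions, at -1.77 on the log2 scale for cortex minus white matter, by the test of that difference.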

How the results depend on the processing

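Fold changes of the 10 genes were counted here where the unadjusted p in the main fit was under 0.05, and not otherwise. Of those recomputed under the alternatives, 1454 kept their direction and side of the threshold, 46 no longer passed, 77 passed newly and 5 reversed. Counts of called genes moved past 1.5 times in 69 recomputations and stayed within it in 356. In cortical zone 1 the count of 1 became 0 with limma voom, 0 with the replicate block and 0 with shallow libraries left out. In cortical zone 2 the 0 became 2 with no low-count filter. Along the cortical zones the 2 became 1 with no low-count filter and 1 with shallow libraries left out. In the white matter stroke IP against input the 0 became 1 with DESeq2, 2 with no filter and 1 with the block. In white matter zone 1 the 0 became 5 with DESeq2, 2 with voom and 5 with shallow libraries left out. Over all genes the 40 higher and 7 lower became 406 and 183 with DESeq2, 93 and 126 with voom and 215 and 195 without shallow libraries. In zone 2 the 2 became 5 with DESeq2, 5 with no filter, 1 with the block and 0 with all IP groups in 1 fit. Over all genes the 69 higher and 30 lower became 380 and 211 with DESeq2 and 358 and 171 with no filter. They became 76 and 38 with the block, and 0 and 0 with all IP groups in 1 fit. In zone 3 the 0 became 1 with DESeq2 and 1 with no filter. In zone 4 the 0 became 2 with DESeq2 and 1 each with voom, no filter, the 6 genes and other ribosomal RNA genes kept, and the block. In zone 5 the 0 became 2 with no filter and 1 with all IP groups in 1 fit. Along the white matter zones the 0 became 1 with DESeq2-method size factors and 1 with no filter. For the zone 1 response the 1 became 4 with DESeq2, 2 with voom, 2 with DESeq2-method size factors, 4 with no filter, 0 with the block and 5 with shallow libraries left out. Over all genes the 124 higher and 150 lower became 323 and 608 with DESeq2, 165 and 168 with voom and 74 and 196 with DESeq2-method size factors. They became 244 and 466 with no filter, 71 and 61 with the block and 416 and 612 without shallow libraries. The other comparisons are given here without their counts over all genes. The cause of these differences was not tested.

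Leaving out 1 library gave 4 to 6 called genes for uninjured cortex IP against input, 6 to 7 for stroke, 0 to 1 in cortical zone 1, 0 to 1 in zone 2, 1 to 2 along the cortical zones, 1 to 2 for uninjured white matter IP against input, 0 to 2 in white matter zone 1, 0 to 3 in zone 2, 0 to 1 in zone 4, 0 to 1 in zone 5, 9 to 10 between regions in input and 0 to 5 for the zone 1 response. These are counts among the 10 genes, and the matching counts over all genes are not given here. The white matter slopes reversed for Map1b (0.37 per zone) to -0.060 with voom and -0.15 with shallow libraries left out, and for Stmn2 (0.70 per zone) to -0.15 with shallow libraries left out. Leaving out 1 library gave slopes of -0.10 (without zone 5 replicate 3) to 0.41 for Map1b and -0.024 (without the same library) to 0.78 for Stmn2. DESeq2-method size factors moved the median of all genes by over 0.1 in 5 of 23 comparisons (-0.25 to 0.18).

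Between zone and uninjured groups, deviations of libraries with the same replicate number correlated at -0.158 to 0.152, which does not pair them. Between cortical zones, which the cortical trend takes together, same-numbered libraries did deviate together in part: 0.0731 to 0.166 for zones 2 and 3, 0.0899 to 0.211 for zones 3 and 4 and 0.101 to 0.258 for zones 4 and 5, with 5 of 5 closest to their own number in each. Zone 1 was at -0.0253 to 0.1996 with the others. With the replicate block the trend still called 2 of the 10 genes, 1 higher and 1 lower. With the replicate block the calls of Ina in cortical zone 1 (adjusted p 0.0687; 0.00235 to 0.144 over all alternatives), Stmn2 in white matter zone 2 (0.0657; 0.000101 to 0.323) and Map1b in the zone 1 response (0.057; 0.000314 to 0.062) did not pass. In white matter zone 5, Nefh was at 0 counts in 1 library, replicate 3, which is shallow.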

Other observations

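The balance of medium to light neurofilament chain (Nefm CPM over Nefl CPM in the same library) was 1.13 to 3.75 over the 30 cortical IP libraries of uninjured tissue and zones 1 to 5, and 0.0226 to 39.7 over the 30 white matter ones. Over the cortical libraries Nefm and Nefh moved together (Pearson r 0.879, Spearman rho 0.902), as did Nefl and Kif5a to a lesser degree (0.666, 0.688), whereas Nefl and Ina did not (0.000661, 0.126). Over the white matter libraries the values were 0.0826 and 0.0407 for Nefm and Nefh, -0.207 and -0.244 for Nefl and Kif5a, 0.519 and 0.560 for Nefl and Ina, and 0.608 and 0.608 for Kif5a and Mapt. These correlations describe log2(CPM + 1) of 30 libraries of 6 groups, which share depth and group differences, and no p is given.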
